A study of Mus musculus with 24 samples.

Results

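The genes of the tricarboxylic acid (TCA) cycle, of branched-chain amino acid breakdown, of ketone body use and of the creatine energy system were followed in the mouse heart during early pressure overload in normal and low oxygen. The set held 39 genes, taken by symbol from the 40840 genes of the count table, and it divided into 14 TCA cycle enzymes, 2 aspartate aminotransferases, 15 genes of branched-chain amino acid breakdown, 3 genes of ketone body use and 5 of the creatine energy system. All 39 passed the filter on low counts, which kept 15027 genes. RNA came from the heart apex of C57/Bl6J wild-type mice in 4 groups of 6, namely normoxia sham, normoxia TAC, hypoxia sham and hypoxia TAC. TAC is transverse aortic constriction, in which a suture tied around a blunt 25-gauge needle narrows the aorta between the innominate and the left common carotid artery and so loads the left ventricle with pressure. Sham mice had the labelled sham surgery, and TAC mice were killed on day 3. The oxygen level and the length of the hypoxia, the age and the sex of the mice are not given in the sources used here. The labels number the samples of a group but do not state that each came from its own animal. The p-values therefore weigh group differences against the spread between these samples, each called a mouse below.

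In a beating heart, acetyl-CoA from fat, sugar, ketone bodies and amino acids is burnt in the TCA cycle of the mitochondria, which are packed densely into heart muscle cells. Leucine, isoleucine and valine enter by a shared transamination and a shared oxidative decarboxylation, whose complex is switched off by a kinase (Bckdk) and on by a phosphatase (Ppm1k), and their carbon then leaves as acetyl-CoA, acetoacetate or propionyl-CoA. Ketone bodies are turned back into acetyl-CoA by Bdh1, Oxct1 and Acat1. Creatine kinases carry the phosphate of ATP from the mitochondria to the contractile filaments, and heart muscle takes creatine up from the blood through the transporter Slc6a8.

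The promoter windows of Cs, Ogdh, Dlst and Mccc2 are shown because these are the 4 members called lower after TAC in normoxia in the main fit. Each runs from 250 bases before to 50 bases after the gene's first listed start in RefSeq on mouse build GRCm38.p6, 5′ to 3′ on the gene's strand, while the counts were made on GRCm39. Cs lies at chr10:128337477-128337776 (plus strand), Ogdh at chr11:6291347-6291646 (plus), Dlst at chr12:85110583-85110882 (plus) and Mccc2 at chr13:100015590-100015889 (minus). Capitals mark the matches to the 4 motifs searched on both strands.
Cs: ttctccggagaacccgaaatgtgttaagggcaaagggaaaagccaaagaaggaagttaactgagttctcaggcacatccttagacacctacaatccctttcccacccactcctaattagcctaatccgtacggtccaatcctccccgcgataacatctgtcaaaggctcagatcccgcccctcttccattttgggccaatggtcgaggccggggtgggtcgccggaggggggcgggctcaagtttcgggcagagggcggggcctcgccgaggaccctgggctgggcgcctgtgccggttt
Ogdh: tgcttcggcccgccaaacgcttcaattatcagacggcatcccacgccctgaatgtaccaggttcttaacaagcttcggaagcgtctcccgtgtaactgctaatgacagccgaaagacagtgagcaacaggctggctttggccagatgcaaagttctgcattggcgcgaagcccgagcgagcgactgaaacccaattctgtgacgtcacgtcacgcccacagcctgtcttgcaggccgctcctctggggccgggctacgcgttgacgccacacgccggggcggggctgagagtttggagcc
Dlst: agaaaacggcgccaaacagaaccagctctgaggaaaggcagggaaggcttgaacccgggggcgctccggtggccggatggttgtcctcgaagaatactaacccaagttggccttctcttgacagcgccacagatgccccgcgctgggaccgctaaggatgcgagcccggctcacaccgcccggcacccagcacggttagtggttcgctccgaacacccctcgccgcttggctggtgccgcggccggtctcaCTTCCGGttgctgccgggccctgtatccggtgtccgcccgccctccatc
Mccc2: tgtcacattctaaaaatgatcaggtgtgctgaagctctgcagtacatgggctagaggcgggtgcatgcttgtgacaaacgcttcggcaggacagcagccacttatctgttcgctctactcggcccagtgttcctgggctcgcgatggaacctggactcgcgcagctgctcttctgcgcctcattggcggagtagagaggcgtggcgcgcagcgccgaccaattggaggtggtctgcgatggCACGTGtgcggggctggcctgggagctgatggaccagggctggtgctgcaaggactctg
The motifs were the core of the estrogen-related receptor element (AAGGTCA), an E-box (CACGTG), an ETS site (CCGGAAG) and the palindrome bound by NRF1. Dlst held the ETS letters on the reverse strand just after the start, and Mccc2 held the E-box just before it. Cs and Ogdh held none of the 4 in these windows. Windows were found for 35 of the 39 members, all but Idh3a, Dbt, Acat1 and Slc6a8. The ETS letters stood in 4 of the 35 (11.4%; Idh3b, Idh3g, Dlst and Auh) and in 9.12% of all 27025 windows of this length. The E-box stood in 1 of 35 (2.86%) against 7.24% of all windows, and the receptor core in 1 of 35 (Got1, 2.86%) against 4.66%. No member window held the NRF1 palindrome, which stood in 0.977% of all windows.

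Total counts per library ran from 10136915 to 15058159. The stress hormone gene Nppb ran from 23.3 to 54.1 CPM (counts scaled to a common library size) in normoxia sham mice and from 174 to 2518 in normoxia TAC mice. In hypoxia it ran from 93.8 to 156 CPM in sham and from 19.1 to 578 in TAC mice, so in hypoxia the groups overlapped. The 11 cardiomyocyte markers (troponins, myosins, titin and others) were detected in every mouse. They summed to 71040 to 76870 CPM in normoxia sham and 70250 to 75680 in hypoxia sham mice. In TAC mice the sum ran from 37920 to 73730 in normoxia and from 59000 to 84260 in hypoxia, and mouse 2 of the normoxia TAC group, at 37920, stood apart from all the others. The 6 fibroblast markers summed to 927 to 984 CPM in normoxia sham and to 927 to 2431 after TAC, and in hypoxia to 1039 to 1209 in sham and 1109 to 2304 after TAC. The 6 macrophage and monocyte markers summed to 73.9 to 100.5 CPM in normoxia sham and to 105.5 to 438 after TAC, and in hypoxia to 104 to 124 in sham and 72.9 to 225 after TAC. With TAC in normoxia 3 of the 6 fibroblast, 5 of the 6 macrophage and 4 of 4 neutrophil markers passed the test as higher, as did 1 of 4 pericyte and 1 of 2 brain markers, and 2 of 5 endothelial and 1 of 11 cardiomyocyte markers passed as lower. In hypoxia 2 neutrophil, 2 cardiomyocyte, 1 of 4 erythroid and 2 of 3 skeletal muscle markers passed as higher, 2 endothelial and 1 cardiomyocyte marker as lower, and 0 fibroblast and 0 macrophage markers passed. Since the tissue was sequenced in bulk, fewer cells of a type and less RNA per cell cannot be told apart, and the part of these markers in the results below was not tested.

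In normoxia sham hearts the most abundant member per length was the mitochondrial creatine kinase Ckmt2, at 3788 CPM per kilobase of exon. It was followed by the malate dehydrogenases Mdh1 (1792, cytosolic) and Mdh2 (1625, mitochondrial), the mitochondrial isocitrate dehydrogenase Idh2 (1552) and the muscle creatine kinase Ckm (1297), in the same unit. The genes of branched-chain amino acid breakdown lay lower, from 19.9 CPM per kilobase for Dbt to 229 for Hibadh. At the other end were the creatine transporter Slc6a8 (11.3) and Gatm (2.35), the enzyme of the first step of creatine synthesis. Exon lengths came from an annotation of an earlier build, so these levels are approximate.

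The members were steady among sham mice and spread widely among TAC mice. The median coefficient of variation of the 39 genes was 6.93% in normoxia sham and 5.68% in hypoxia sham, against 24.2% and 19.7% in the matching TAC groups. The 9800 genes at least as abundant as the least abundant member also spread more widely among TAC mice. Their medians were 8.89%, 8.78%, 23% and 18.2% in that order, so the members were steadier in sham and slightly more spread in TAC mice. These genes were not matched to the members by level. In the members, some TAC mice lay more often below all sham mice and others more often above. In normoxia, mouse 2 lay below all 6 sham mice in 34 of the 39 members and above them in 2, where 38.9% of all genes lay below and 37.7% above. Mouse 3 lay below in 27, mouse 6 in 25 and mouse 1 in 21. For these 3 mice 22.4% to 31.7% of all genes lay below. Mouse 5 lay above all sham mice in 26 members and below in 5, where 30.5% of all genes lay above and 30.8% below. Mouse 4 lay above in 20 (36.7% of all genes) and below in 11 (38.2%). In hypoxia, TAC mice 3, 2 and 5 lay below all hypoxia sham mice in 32, 30 and 28 members (34.9%, 29.9% and 32.5% of all genes), while mouse 6 lay above them in 24 (32.6%). Hypoxia TAC mouse 1 lay below in 12 and above in 7 (25.2% and 24.2% of all genes). Hypoxia TAC mouse 4 lay below in 10 and above in 10 (22.6% and 21.4%). Normoxia TAC mouse 2 had the lowest value of all 24 mice in 20 members and normoxia TAC mouse 5 the highest in 14. Such counts were not taken over all genes for these mice. The summed cardiomyocyte markers of these mice were 37920 and 69250 CPM.

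**Figure D1:**
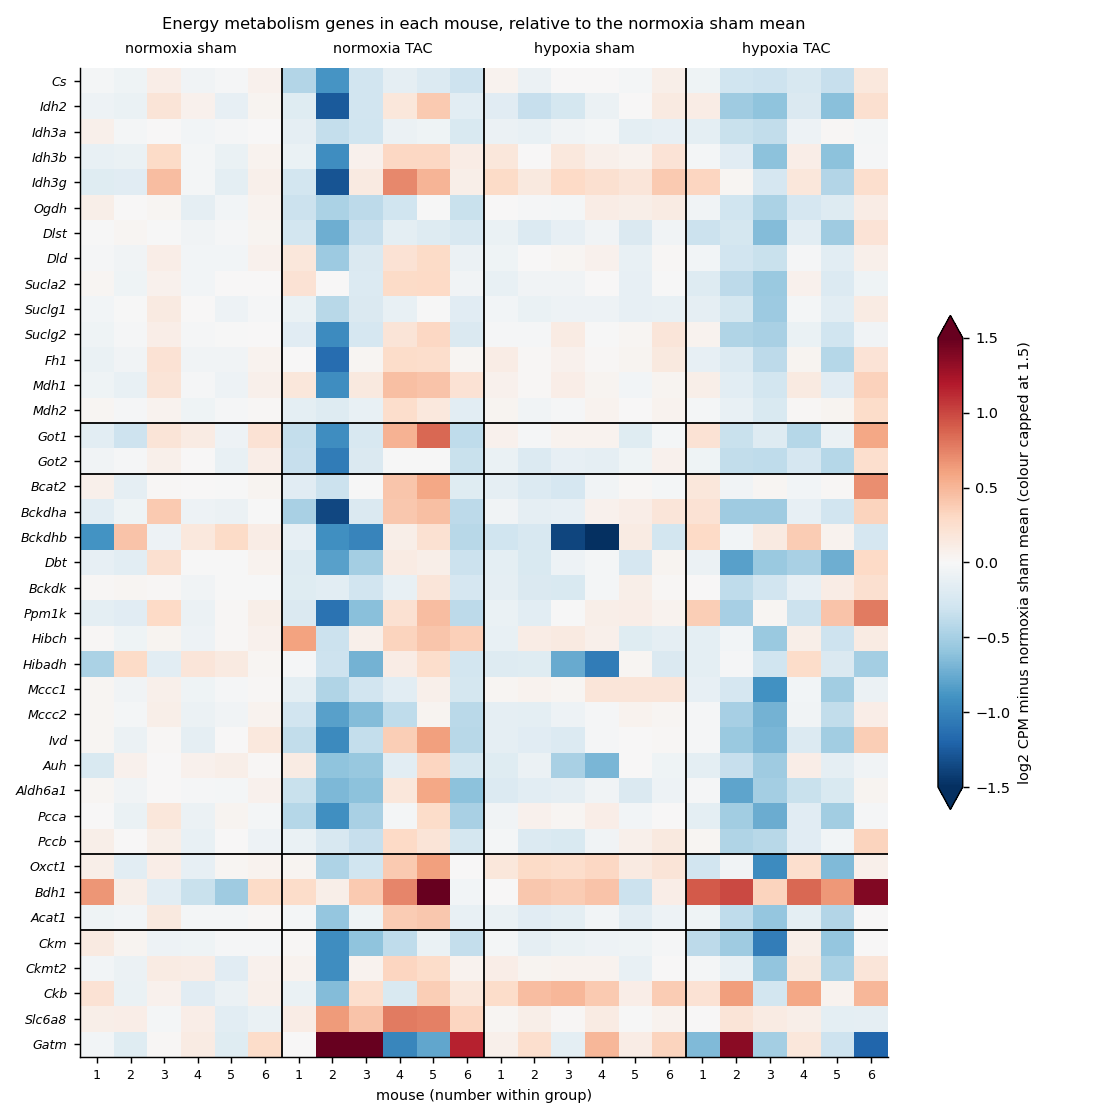
Each member gene (rows, in the order TCA cycle, aspartate aminotransferases, branched-chain amino acid breakdown, ketone body use, creatine energy system, set apart by lines) in each of the 24 mice (columns) as log2 CPM minus the mean of the normoxia sham mice, red higher and blue lower, with colour capped at 1.5. Normoxia TAC mouse 2 is blue in most rows and normoxia TAC mouse 5 red in most, while sham mice are pale except in Bckdhb, Hibadh, Auh and Bdh1.

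In normoxia, 3 genes of the TCA cycle and 1 gene of leucine breakdown were lower after TAC than after sham surgery, and the creatine transporter was higher. Of the 39 members 5 were called, 4 lower and 1 higher, which is 12.8%, against 27.4% of all genes tested (edgeR quasi-likelihood test, Benjamini-Hochberg adjusted p under 0.05). By direction, 10.6% of all genes were called lower and 16.8% higher, so the 4 of 39 members called lower were close to the share of all genes. A fit of the 12 normoxia libraries alone called the same 5 members, with 7.21% of all genes lower and 11.8% higher. The mitochondrial ribosomal RNAs took 2.93% to 3.71% of the counts in sham and 3.98% to 5.72% in TAC mice, without overlap, and their part in the result was not tested. The share of members called lay below that of all genes, and the difference of the shares was not tested. The median log2 change was -0.13 over the members and 0.01 over all genes, and with libraries scaled to the 11 cardiomyocyte markers it was 0.13 and 0.30. The 95% interval of the log2 change lay within 1, that is a 2-fold change, for 32 of the 34 members not called, all but Bdh1 and Gatm.

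Citrate synthase (Cs), which joins acetyl-CoA to oxaloacetate to open the cycle, had a lowest, median and highest level of 1042, 1074 and 1166 CPM in sham and of 590.0, 888 and 991 CPM in TAC mice. The groups did not overlap. The log2 change was -0.36 ± 0.10 (SE; adjusted p = 0.0137, edgeR), and it was -0.28 (adjusted p = 0.0156) without normoxia TAC mouse 2. Ogdh, the decarboxylating subunit of the 2-oxoglutarate dehydrogenase complex, ran from 3059 over 3386 to 3562 CPM in sham and from 2411 over 2674 to 3349 in TAC mice. Of the 6 TAC mice 5 lay below every sham mouse and mouse 5 lay among them. Its log2 change was -0.30 ± 0.09 (adjusted p = 0.0216, edgeR), and the call was lost with no filter on low counts. Dlst, the core subunit of the same complex, was at 356, 368 and 381 CPM in sham and at 223, 309 and 334 CPM in TAC mice, with no overlap. Its log2 change was -0.31 ± 0.11 (adjusted p = 0.0422, edgeR), and the call was lost with median-of-ratios scaling and with no filter on low counts. The Dlst call was also lost without normoxia TAC mouse 2 (-0.25, adjusted p = 0.0776), without normoxia TAC mouse 3 or without any of normoxia sham mice 1, 2, 3, 5 and 6. The third subunit, Dld, which this complex shares with those of pyruvate and of the branched-chain keto acids, had a log2 change of -0.003 ± 0.11 and ran from 484 to 865 CPM in TAC mice around sham values of 683 to 755 CPM.

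The other 10 TCA cycle genes besides Cs, Ogdh, Dlst and Dld were not called, with log2 changes from -0.19 to 0.14. Idh3a, the catalytic subunit of the NAD-dependent isocitrate dehydrogenase, did not overlap between groups (1577 to 1714 CPM in sham, 1261 to 1545 in TAC), and its log2 change of -0.19 ± 0.08 missed the threshold (adjusted p = 0.0662, edgeR; 0.0325 with DESeq2). Its partner subunits Idh3b and Idh3g had log2 changes of 0.01 ± 0.16 and 0.09 ± 0.21, with overlapping groups. In all, 10 of the 14 genes had a change below 0 (3 of 14 with scaling to cardiomyocyte markers), with a median of -0.08. Cs, Idh3a, Dlst and the creatine transporter Slc6a8 were the 4 members whose groups did not overlap, where 8.90% of all genes did not (5.04% higher and 3.86% lower after TAC). With that scaling the median of all genes moved up by 0.29 on the log2 scale, 11 of the 14 lay above 0, and their median of 0.15 was 0.16 below that of all genes. Cs then had a log2 change of -0.11 (adjusted p = 0.2135), Ogdh of -0.01 (0.931) and Dlst of -0.05 (0.709), all by edgeR. The aspartate aminotransferases Got1 (cytosolic) and Got2 (mitochondrial), which with the malate dehydrogenases carry reducing power into mitochondria, had log2 changes of 0.03 ± 0.22 and -0.29 ± 0.13 and were not called (adjusted p = 0.946 and 0.108, edgeR).

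**Figure D2:**
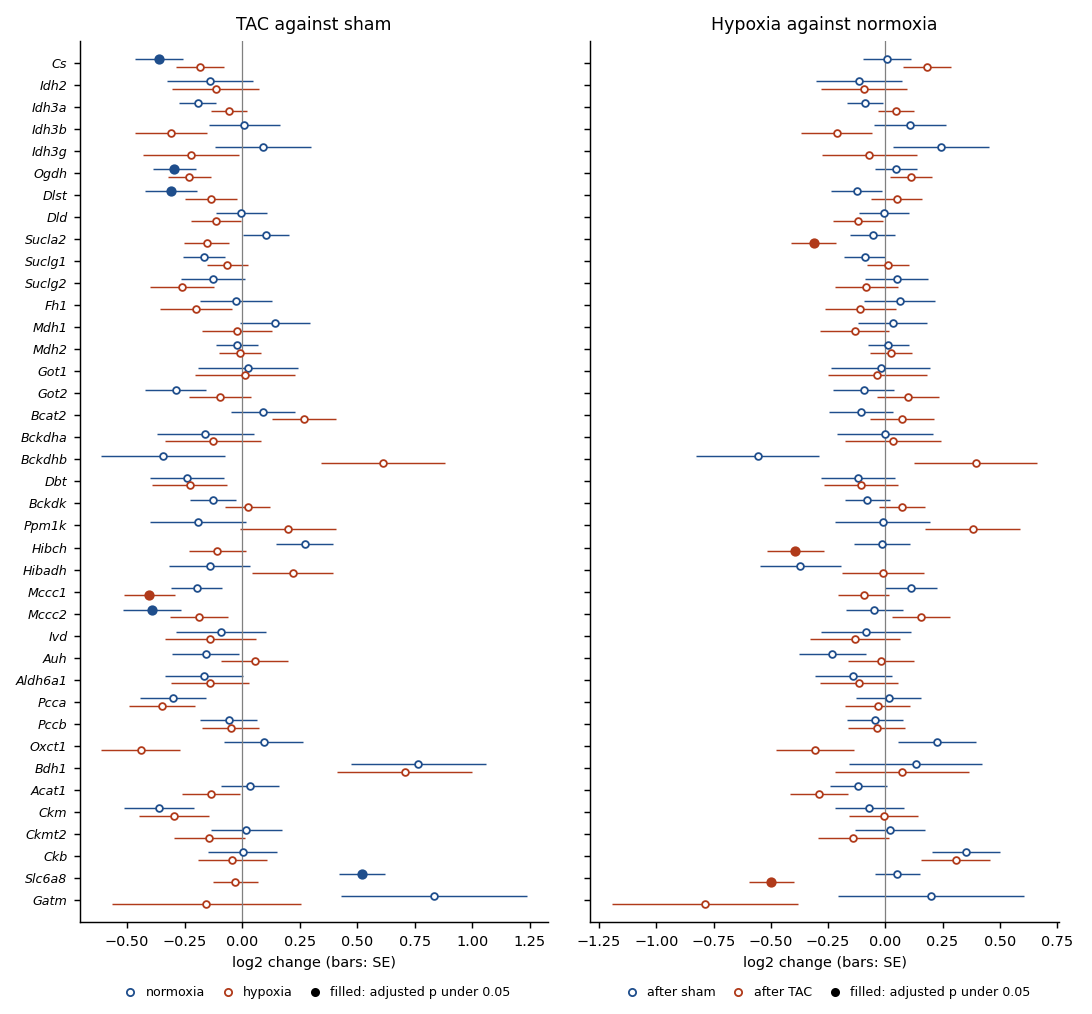
Log2 change of each member (points, bars are standard errors) for TAC against sham at either oxygen condition (left) and for hypoxia against normoxia after sham and after TAC (right), with filled points called at an adjusted p under 0.05. Of 39 members, 5 are filled for TAC in normoxia, 1 for TAC in hypoxia, 0 for hypoxia after sham and 3 for hypoxia after TAC.

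Of the genes that break down leucine, isoleucine and valine, 1 of 15 passed the test for TAC in normoxia. The median log2 change was -0.16, with 13 of 15 below 0 (3 of 15 with scaling to cardiomyocyte markers). The gene that passed was Mccc2, the beta subunit of 3-methylcrotonyl-CoA carboxylase in leucine breakdown, at 112, 119 and 127 CPM in sham and at 68.0, 91.1 and 122 CPM in TAC mice. Normoxia TAC mouse 5 lay among the sham mice and the other 5 lay below them all. Its log2 change was -0.39 ± 0.13 (adjusted p = 0.0239, edgeR), and the call was lost without normoxia TAC mouse 3 (-0.34, adjusted p = 0.0603). Mccc1, the biotin-carrying alpha subunit, had a log2 change of -0.20 ± 0.11 and was not called (198.6 to 220 CPM in sham, 151 to 218 in TAC). The subunits of propionyl-CoA carboxylase, which takes up the end product of valine and isoleucine, had log2 changes of -0.30 ± 0.14 (Pcca) and -0.06 ± 0.12 (Pccb), neither called. With scaling to cardiomyocyte markers 12 of the 15 lay above 0, their median was 0.23 below that of all genes, and Mccc2 was not called (-0.13, adjusted p = 0.393, edgeR).

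The entry steps of the pathway were not called in normoxia. The mitochondrial transaminase Bcat2 had a log2 change of 0.09 ± 0.14, and the 3 genes of the branched-chain keto acid dehydrogenase had changes of -0.16 ± 0.21 (Bckdha), -0.34 ± 0.27 (Bckdhb) and -0.24 ± 0.16 (Dbt). The kinase Bckdk, which inhibits that complex, changed by -0.13 ± 0.10 and the phosphatase Ppm1k, which activates it, by -0.19 ± 0.21 on the same scale. Neither regulator passed the test, and their log2 ratio of kinase to phosphatase was 0.82 ± 0.18 (SD, n = 6) in sham and 0.96 ± 0.47 in TAC mice. Of the enzymes further down, Hibch, the hydrolase of valine breakdown, had the highest change of the list, 0.27 ± 0.12 (adjusted p = 0.102, edgeR), and Ivd, Auh, Aldh6a1 and Hibadh ran from -0.16 to -0.09.

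**Figure D3:**
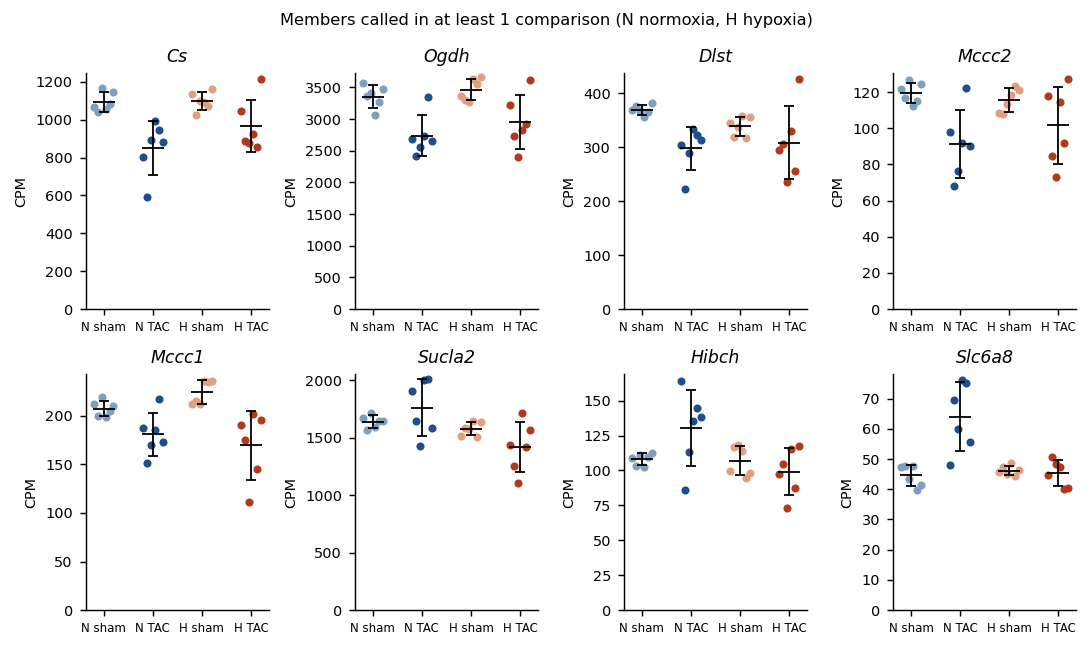
CPM of the 8 members called in at least 1 comparison in each mouse (points) of the 4 groups, with mean and SD (black), on axes that start at 0. Cs and Dlst of normoxia TAC mice lie below all normoxia sham mice, and Slc6a8 reaches 76.3 CPM in normoxia TAC mice and at most 50.8 CPM in the other 3 groups.

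The creatine transporter had the smallest adjusted p of the 39 members for TAC in normoxia. Slc6a8 was at 39.9, 45.4 and 47.9 CPM in normoxia sham and at 47.9, 64.7 and 76.3 CPM in normoxia TAC mice, and the groups just failed to overlap (47.86 against 47.88 CPM). The log2 change was 0.52 ± 0.10 (adjusted p = 0.000855, edgeR), and it remained called in all 24 fits that left out 1 mouse, from 0.47 to 0.59 (adjusted p at most 0.00343). It was also called with scaling to cardiomyocyte markers (0.83), which moved the median of all genes up by 0.29. The creatine kinases were not called. Ckm, the cytosolic kinase of muscle, ran from 3377 to 3903 CPM in sham and from 1867 to 3586 in TAC mice (log2 change -0.36 ± 0.15, adjusted p = 0.0764, edgeR). Ckmt2 and the brain-type kinase Ckb had log2 changes of 0.02 ± 0.15 and 0.003 ± 0.15. Gatm was scarce and erratic, at 4.88 to 6.76 CPM in sham and 2.76 to 18.8 CPM in TAC mice, with a log2 change of 0.83 ± 0.40 (adjusted p = 0.125, edgeR).

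Of the ketone genes, Bdh1, the dehydrogenase that turns 3-hydroxybutyrate into acetoacetate, had a higher mean after TAC in both oxygen conditions without passing the test. It stood at 148, 209 and 338 CPM in normoxia sham and at 207, 271 and 937 CPM in normoxia TAC mice, the last value being mouse 5. The log2 change was 0.77 ± 0.29 (adjusted p = 0.0539, edgeR; 0.0285 with DESeq2). In hypoxia it stood at 171, 254 and 287 CPM in sham and at 271, 397 and 562 CPM in TAC mice, and 5 of the 6 TAC mice lay above every sham mouse. That log2 change was 0.71 ± 0.29 (adjusted p = 0.109, edgeR), and it was called in the fit of the 12 hypoxia libraries alone (0.71 ± 0.17, adjusted p = 0.0167), where 8.03% of all genes were called higher, 6.55% lower and 14.6% in all, and without normoxia TAC mouse 5 (adjusted p = 0.0210). Oxct1, which activates acetoacetate, and Acat1, which splits acetoacetyl-CoA, had log2 changes of 0.09 ± 0.17 and 0.04 ± 0.13 in normoxia.

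**Figure D4:**
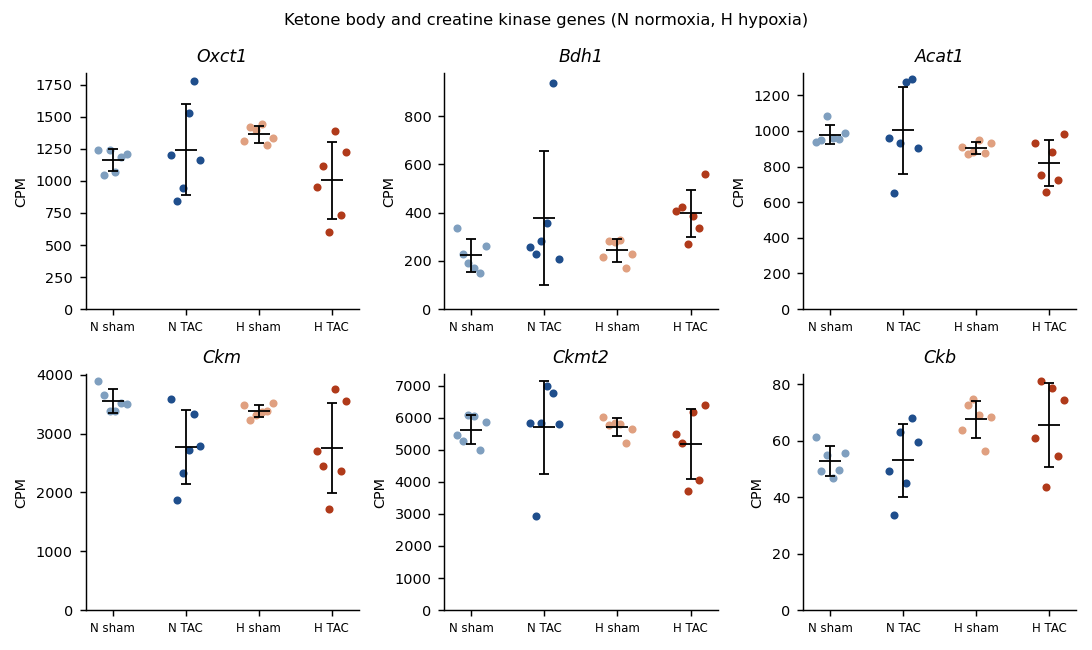
CPM of the 3 ketone body genes and the 3 creatine kinases in each mouse (points) of the 4 groups, with mean and SD (black), on axes that start at 0. Bdh1 reaches 937 CPM in normoxia TAC mouse 5, and Oxct1 in hypoxia sham mice (1278 to 1443 CPM) lies above all normoxia sham mice (1046 to 1245 CPM).

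In hypoxia, 1 member of leucine breakdown was lower after TAC and no gene of the TCA cycle passed the test. The member was Mccc1, the only gene called of 39 (2.56%), where 11.1% of all genes were called, 4.68% lower and 6.46% higher. Mccc1 stood at 212, 226 and 236 CPM in hypoxia sham and at 111, 182 and 202 CPM in hypoxia TAC mice, with no overlap (5.67% of all genes did not overlap, 2.31% higher and 3.36% lower). The log2 change was -0.40 ± 0.11 (adjusted p = 0.0248, edgeR). The call was lost without hypoxia sham mouse 4 or 6 or hypoxia TAC mouse 3 or 5 (adjusted p up to 0.0618), and no member was called lower with scaling to cardiomyocyte markers. Its partner Mccc2 had a log2 change of -0.19 ± 0.13 here.

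All 14 TCA cycle genes had a log2 change below 0 for TAC in hypoxia, from -0.31 (Idh3b) to -0.01 (Mdh2), while 9 of 14 did with scaling to cardiomyocyte markers and 13 of 14 with median-of-ratios scaling, where Mdh2 changed sign. Their median was -0.15 (TMM) against 0.01 for all genes, and 0 of them were called (1 at an unadjusted p under 0.05 with edgeR, 0 called with DESeq2). With scaling to cardiomyocyte markers their median was 0.16 below that of all genes, which had moved up by 0.13. The genes called in normoxia had log2 changes here of -0.18 ± 0.10 (Cs), -0.23 ± 0.09 (Ogdh), -0.14 ± 0.11 (Dlst) and -0.03 ± 0.10 (Slc6a8). Of these, the difference between the 2 TAC responses was called for Slc6a8 alone. Among the branched-chain genes 9 of 15 lay below 0 (7 of 15 with scaling to cardiomyocyte markers), and the highest change was that of Bckdhb (0.61 ± 0.27, adjusted p = 0.132, edgeR). Oxct1 had a log2 change of -0.44 ± 0.17 (adjusted p = 0.0868, edgeR), from 1278 to 1443 CPM in sham to 605 to 1389 in TAC mice.

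Between hypoxia and normoxia sham mice the log2 differences of the members ran from -0.56 (Bckdhb) to 0.35 (Ckb), and the median size was 0.08. In the fit of all mice 0 of 39 members were called, and 0.166% of all genes were, 0.0865% higher and 0.0799% lower (3 members at an unadjusted p under 0.05 with edgeR, 0 called with DESeq2, 1 with limma voom and quality weights). The 24 libraries shared 1 estimate of spread, a biological coefficient of variation of 0.241, where the 12 sham libraries alone gave 0.106 and the 12 TAC libraries alone 0.323. The shared estimate is thus above the spread of the sham mice and below that of the TAC mice. Fitted on the 12 sham libraries alone, 3 of 39 members were called, where 11.5% of all genes were, 6.57% higher and 4.93% lower. In that fit Oxct1 had a log2 change of 0.23 ± 0.05 (adjusted p = 0.0058, edgeR), and its groups did not overlap (1046 to 1245 CPM in normoxia, 1278 to 1443 in hypoxia), as for 5.02% of all genes (2.79% higher and 2.23% lower). Ckb had a change of 0.36 ± 0.07 (adjusted p = 0.00379, edgeR), from 47.0, 52.2 and 61.2 CPM in normoxia to 56.5, 68.9 and 74.8 CPM in hypoxia, with overlap. Aldh6a1, the dehydrogenase of methylmalonate semialdehyde, had a change of -0.14 ± 0.04 (adjusted p = 0.0355, edgeR). The summed endothelial markers, 5 of 5 detected, were 610 to 710 CPM in normoxia sham and 757 to 915 CPM in hypoxia sham mice, and their part in these values was not tested.

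After TAC, 3 members were lower in hypoxia than in normoxia in the fit of all mice, and 0 in that of the 12 TAC libraries. They were Sucla2, Hibch and Slc6a8, or 7.69% of the 39, where 11.1% of all genes were called and 6.41% were called lower. Slc6a8 stood at 40.05, 46.1 and 50.8 CPM in hypoxia TAC against 47.9, 64.7 and 76.3 CPM in normoxia TAC mice, and 1 of the 6 normoxia mice lay within the hypoxia range. Its log2 difference of -0.50 ± 0.10 (adjusted p = 0.00408, edgeR) was called in all 24 fits that left out 1 mouse. Sucla2, the ATP-forming beta subunit of succinyl-CoA ligase, stood at 1109, 1430 and 1716 CPM in hypoxia TAC and at 1425, 1775 and 2007 CPM in normoxia TAC mice, with overlap. Its log2 difference was -0.31 ± 0.10 (adjusted p = 0.0417, edgeR), beside -0.08 ± 0.14 for the GTP-forming subunit Suclg2 and 0.01 ± 0.09 for the shared subunit Suclg1. Hibch stood at 73.5, 101 and 117 CPM in hypoxia TAC and at 86.1, 137 and 164 CPM in normoxia TAC mice, with overlap, and its log2 difference was -0.39 ± 0.12 (adjusted p = 0.0415, edgeR). The 2 groups overlapped in all 39 members, and they did not in 1.46% of all genes (0.599% higher and 0.858% lower). The calls of Sucla2 and Hibch were lost in 19 and 18 of the 24 fits that left out 1 mouse, and the fit of the 12 TAC libraries called 0 of 14267 genes (2364 genes and 2 members at an unadjusted p under 0.05, edgeR). Both calls were lost without any normoxia sham mouse, without normoxia TAC mouse 1, 4 or 5, without hypoxia sham mouse 1, 2, 3, 5 or 6 and without hypoxia TAC mouse 1, 3 or 5. That of Sucla2 was also lost without hypoxia sham mouse 4 or hypoxia TAC mouse 2, and that of Hibch without normoxia TAC mouse 6. In this comparison 3 of 5 endothelial, 1 of 4 pericyte, 1 of 4 erythroid and 1 of 3 skeletal muscle markers were called higher in hypoxia and 1 of 6 macrophage markers lower, and their part in the result was not tested. The mitochondrial ribosomal RNAs took 2.03% to 3.92% of the counts in hypoxia TAC and 3.98% to 5.72% in normoxia TAC mice, without overlap. Their part was not tested either.

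The response of Slc6a8 to TAC differed between the oxygen conditions. The difference of the log2 changes, hypoxia minus normoxia, was -0.55 ± 0.14 (adjusted p = 0.0411, edgeR), and Slc6a8 was the only member called of 39 (2.56%), where 2.05% of all genes were, 1.12% higher and 0.925% lower. It was called with DESeq2 as well (adjusted p = 0.0108), and it was lost in 16 of the 24 fits that left out 1 mouse (adjusted p up to 0.0865). These were the fits without any normoxia sham mouse, without normoxia TAC mouse 4, without hypoxia sham mouse 1, 2, 3, 4 or 6 and without hypoxia TAC mouse 1, 3, 5 or 6. It was not called with scaling to cardiomyocyte markers or with no filter on low counts. Bckdhb had a difference of 0.95 ± 0.38 (adjusted p = 0.153) and Oxct1 of -0.53 ± 0.24 (adjusted p = 0.203), neither called by edgeR.

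Ratios between partner genes in the same mouse, on which library scaling has little bearing, showed how subunits, isoforms and neighbouring enzymes moved against each other. They were not tested, and how often ratios of other gene pairs fail to overlap was not counted. The log2 ratio of Ckb to Ckm was -6.08 ± 0.12 (SD, n = 6 here and below) in normoxia sham and -5.71 ± 0.33 in normoxia TAC mice, against -5.65 ± 0.17 and -5.38 ± 0.25 in the hypoxia sham and TAC mice. The hypoxia sham mice (-5.91 to -5.47) did not overlap with the normoxia sham mice (-6.22 to -5.94). Bdh1 relative to Oxct1 was -2.44 ± 0.42, -1.89 ± 0.54, -2.51 ± 0.23 and -1.31 ± 0.28 in the same order of groups. In hypoxia all 6 TAC mice (from -1.84 up) lay above all 6 sham mice (up to -2.33) in this ratio, while in normoxia the groups overlapped. Mccc2 relative to Mccc1 was -0.80 ± 0.03 in sham and -1.01 ± 0.13 in TAC mice in normoxia, and -0.96 ± 0.04 and -0.74 ± 0.17 in hypoxia. For this carboxylase every normoxia TAC mouse (up to -0.8308) lay below every normoxia sham mouse (from -0.8275 up), and the hypoxia sham mice (-0.996 to -0.90) also lay below. The ratios of Mdh1 to Mdh2, of Got1 to Got2 and of Suclg2 to Sucla2 overlapped between TAC and sham mice in both oxygen conditions.

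Genes next to these pathways were read from a list of 63 symbols, of which 61 were tested. In normoxia, 9 of the 61 were higher and 6 lower after TAC (24.6%, against the 27.4% of all genes). The 6 with the smallest p were Pdp2, Slc7a5, Mpc1, Pdk3, Ppara and Slc3a2. Pdp2, a phosphatase that activates pyruvate dehydrogenase, fell from 85.3 to 126 CPM in sham to 15.1 to 81.3 CPM in TAC mice (log2 change -1.40 ± 0.28, adjusted p = 0.00126, edgeR). Pdk3, a kinase that inhibits the same complex, rose by 0.71 ± 0.20 (adjusted p = 0.0100, edgeR) but was scarce, at 2.33 to 4.94 CPM in sham and 4.85 to 7.20 CPM in TAC mice. Mpc1, a subunit of the mitochondrial pyruvate carrier, rose by 0.43 ± 0.11 on the log2 scale (adjusted p = 0.00508, edgeR). Slc7a5 and Slc3a2 form a transporter that brings branched-chain amino acids into cells. They rose by 1.69 ± 0.36 (adjusted p = 0.00192) and 0.83 ± 0.23 (adjusted p = 0.0112) on the log2 scale by edgeR, with Slc7a5 at only 0.779 to 1.48 CPM in sham and 1.57 to 7.38 CPM in TAC mice. Ppara, a nuclear receptor that drives fat oxidation genes, fell by 1.02 ± 0.28 on the log2 scale (adjusted p = 0.0109, edgeR), from 101 to 146 CPM in sham to 19.4 to 108 CPM in TAC mice. In these 6 genes the call held in all 24 fits that left out 1 mouse. The fit of the 12 normoxia libraries called 7 of 60 related genes (11.7%), 5 higher and 2 lower. In that fit 2724 of all 14361 genes tested were called, 11.8% of all genes higher and 7.21% lower. Of the 6 genes above, that fit did not call Ppara.

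In hypoxia, 2 of the 61 genes were higher and 3 lower after TAC (8.2%, against 11.1% of all genes). Pdk3 rose by 0.78 ± 0.20 on the log2 scale (adjusted p = 0.0150, edgeR), and Slc3a2 by 0.79 ± 0.23 (adjusted p = 0.0313, edgeR). Tfam, a factor of mitochondrial DNA upkeep, and Gamt, the second enzyme of creatine synthesis, fell by 0.41 ± 0.13 and 0.82 ± 0.26 (adjusted p = 0.0399 and 0.0401, edgeR). Of these 4 calls only that of Pdk3 held in all fits without 1 mouse, and the others were lost in 8 (Slc3a2), 11 (Gamt) and 13 (Tfam) of 24.

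For hypoxia against normoxia after TAC, 1 of the 61 genes was higher and 3 were lower. Of all genes 11.1% were called, 4.66% higher and 6.41% lower. Among the called related genes were Klf15 (1.34 ± 0.30, adjusted p = 0.00797), Pdk4, a kinase that inhibits pyruvate dehydrogenase (-1.19 ± 0.35, adjusted p = 0.0309), and Tfam (-0.39 ± 0.13, adjusted p = 0.0499), by edgeR. The calls of Pdk4 and Tfam were lost in 3 and 20 of 24 fits without 1 mouse, and none of these 3 was called in the fit of the 12 TAC libraries. Klf15, a transcription factor known to switch on branched-chain amino acid breakdown genes in heart, ran from 8.502 to 39.3 CPM in normoxia TAC and from 22.4 to 76.9 CPM in hypoxia TAC mice. After sham surgery alone 0 of the 61 genes were called between hypoxia and normoxia (7 at an unadjusted p under 0.05, edgeR), and the fit of the 12 sham libraries called 2 higher and 8 lower of 60 tested (16.7%, against 11.5% of all genes, 6.57% higher and 4.93% lower), of which Ppara (-0.50 ± 0.07, adjusted p = 0.000212) and the coactivator Ppargc1b (-0.39 ± 0.06, adjusted p = 0.000364) had the smallest p.

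**Figure D5:**
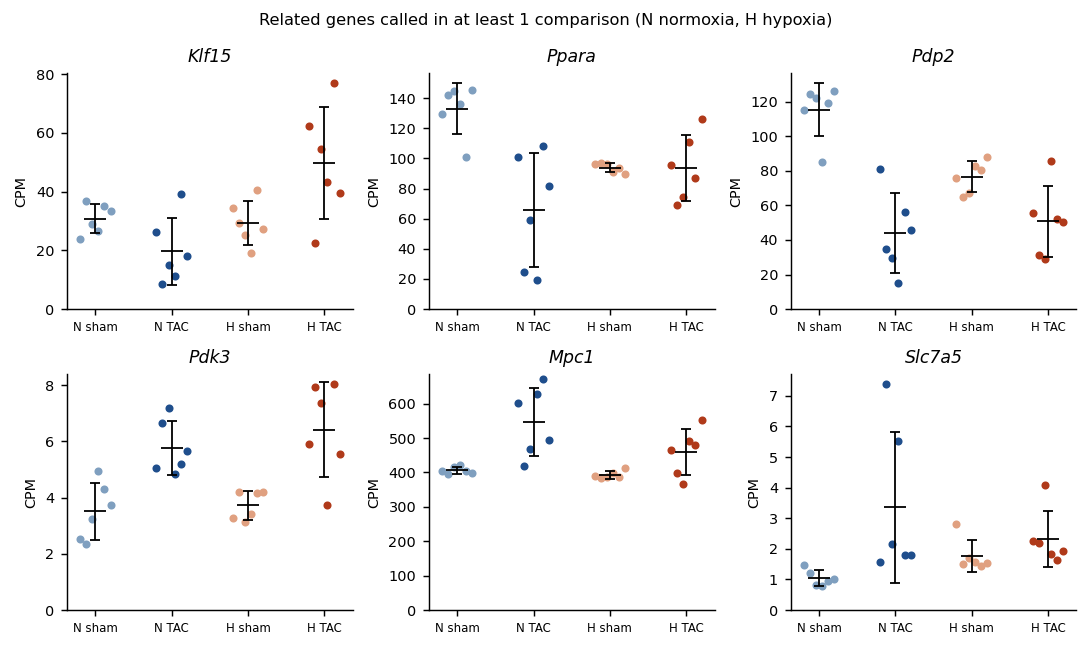
CPM of 6 related genes (the regulators Klf15 and Ppara, the pyruvate dehydrogenase phosphatase Pdp2 and kinase Pdk3, the pyruvate carrier subunit Mpc1 and the amino acid transporter Slc7a5) in each mouse (points) of the 4 groups, with mean and SD (black), on axes that start at 0. Pdp2 in normoxia TAC mice (15.1 to 81.3 CPM) lies below every normoxia sham mouse (85.3 to 126 CPM).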

How the data were processed

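A low-input kit turned 100 ng of total RNA into each library, per the protocols in the labels. The file deposited by the authors holds raw counts per gene symbol, 1 column per library, with no normalization. STAR 2.7.3a, Subread 2.0.0 (featureCounts), bcl2fastq 2.20.0.422 and build GRCm39 are named in the submitters' processing notes. Settings and strand are not given in the sources used here, so reads of overlapping or antisense genes cannot be told apart. Columns were joined to samples through the library numbers in the header.

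Counts were scaled by TMM, filtered with filterByExpr (minimum count 10, minimum total 15; 15027 of 40840 genes, 99.9% of counts) and fitted in edgeR 4.0.16 (R 4.3.3) with a robust quasi-likelihood fit of 4 group means to all 24 libraries (20 residual degrees of freedom). Benjamini-Hochberg adjusted p-values cover all genes tested, and a gene was called under 0.05. Log2 changes carry standard errors, and log2 ratios carry standard deviations. Log2 CPM used a prior count of 2. The members, lists and tests were chosen with earlier results of these data known. Called members, partner subunits and up to 6 called related genes per comparison by smallest p were named, and some related genes are not reported here. Exon lengths are from GENCODE M21. Alternatives were median-of-ratios scaling, scaling to 11 cardiomyocyte markers, no filter, DESeq2 1.42.0, voom with quality weights (limma 3.58.1), 12-library fits, a replicate block and leaving out each library. Replicates of a group differed by more than sampling noise (chi-square per degree of freedom at least 3.512). Counts of amplified reads carry counting and amplification error.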

Additional observations from a re-analysis of the deposited data

Results flagged for a closer look

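In 13 of the 156 sets of 6 mice (39 members in 4 groups), the highest or lowest mouse lay far from its neighbour. The gap, as a part of the group's range of log2 CPM (values in parentheses), passed the 95% critical value of Dixon's test. Chance gives about 1 in 20 for independent sets. These sets are not independent, since the same mice recur in all members, and the share over all genes was not counted. Normoxia TAC mouse 2 was the low mouse in 6 of the 13. They were the TCA cycle genes Idh3b (0.663), Dlst (0.646), Fh1 (0.813) and Mdh1 (0.78), the aminotransferase Got2 (0.669) and the creatine kinase Ckmt2 (0.786). This mouse also had the lowest summed cardiomyocyte markers, 37920 CPM. Bdh1 was high in normoxia TAC mouse 5 (0.64), and the transaminase Bcat2 was high in hypoxia TAC mouse 6 (0.71). Among sham mice, normoxia mouse 1 was high in Idh3a (0.639) and low in Auh (0.728), normoxia mouse 3 was high in Bckdha (0.734) and Acat1 (0.641), and hypoxia mouse 5 was low in Got1 (0.651).

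The TAC responses of Slc6a8 differed between hypoxia and normoxia by -0.55 on the log2 scale (adjusted p = 0.0411 by edgeR over all genes tested). Of all genes 2.05% were called in this comparison. The Slc6a8 call was lost in 16 of the 24 fits that left out 1 mouse. It was also lost with scaling to cardiomyocyte markers and with no filter on low counts.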

How the results depend on the processing

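No called log2 change turned its sign under any alternative run. With no filter on low counts, the members called lower for TAC in normoxia numbered 2 in place of 4, with Ogdh and Dlst lost. In that run the members called lower numbered 0 in place of 1 for TAC in hypoxia and 1 in place of 3 for hypoxia after TAC. For the difference of TAC responses they numbered 0 in place of 1. With limma voom and quality weights, 9 were lower and 3 higher for TAC in normoxia, 6 lower for TAC in hypoxia, 1 higher (Ckb) for hypoxia after sham and 3 lower for the difference of responses. Over all genes that run called 3734, 2785, 1593 and 1497 in these comparisons. DESeq2 called 2 members higher for TAC in normoxia in place of 1, and 4623 of all genes in either direction. With scaling to cardiomyocyte markers, 0 members were lower and 10 higher for TAC in normoxia, 0 lower and 1 higher for TAC in hypoxia and 0 lower for the difference of responses. Of all 15027 genes, 4768 were then called higher and 354 lower for TAC in normoxia, and 862 higher and 115 lower for TAC in hypoxia. That scaling moved the median of all genes by 0.29, 0.13, -0.15 and -0.16 on the log2 scale for TAC in normoxia, TAC in hypoxia, hypoxia after TAC and the difference of responses, and the share of called genes that were higher went from 61.3% to 93.1%, from 58% to 88.2% and from 42.1% to 14.3% in the first 3. In fits of 12 libraries, 1 member was higher for TAC in hypoxia, 1 was lower and 2 higher for hypoxia after sham, and 0 were lower for hypoxia after TAC. In all these cases the cause was not tested. The 12-library fits hold fewer samples and estimate the spread from those samples alone.

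Leaving out 1 mouse gave 2 to 8 members lower (2 without normoxia TAC mouse 3, 8 without normoxia TAC mouse 5) and 1 to 4 higher (4 without normoxia TAC mouse 2) for TAC in normoxia, 0 to 2 lower and 0 to 1 higher for TAC in hypoxia, 0 to 0 for hypoxia after sham, 1 to 4 lower for hypoxia after TAC, and 0 to 1 lower for the difference of responses. Correlations of same-numbered mice were over 0.1 in 0 of 6 pairs in the first 3 comparisons, and in 4 of 6 (from -0.31 to 0.35) for hypoxia after TAC, where 3 of 6 mice correlated best with their own number, a hint from the data and not the design. Not every pair was over 0.1 and no label pairs the mice, so the numbers were not taken to pair them. With the replicate number as a block, 5, 1, 0, 2 and 1 members were called in the 5 comparisons in place of 5, 1, 0, 3 and 1, and Hibch was the call lost. Over all genes, 4114, 1674, 25, 1663 and 308 were called in the 5 comparisons in the order above. Counts that moved by over 1.5 times were 2724, 1658 and 0 with 12 libraries for the first, the third and the fourth, 1019, 11, 1031 and 135 with no filter for the second to the fifth, 2785, 1593 and 1497 with voom for the second, the third and the fifth, 96 and 919 with DESeq2 for the third and the fifth, 977, 16 and 21 with cardiomyocyte scaling for the second, the third and the fifth, and 13 with the replicate block for the third. Leaving out 1 mouse gave 3151 to 5083, 664 to 2834, 6 to 50, 775 to 2169 and 93 to 946 genes in the same order. Counting error weighs on scarce genes such as Gatm and Slc7a5, at a few CPM.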

Other observations

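Bckdhb, Hibadh and Auh, an enzyme subunit of the shared branched-chain step and enzymes of valine and leucine breakdown, had the same 3 lowest mice among the 12 sham mice, namely normoxia sham 1 and hypoxia sham 3 and 4. Bckdhb stood at 39.1, 27.9 and 20.97 CPM in these mice and at 59.2 to 97.7 CPM in the other sham mice. Hibadh stood at 295, 244 and 198.3 CPM in them, and Auh at 144, 121 and 105 CPM. Of all genes tested, 570 (3.79%) had these 3 mice as their lowest among the sham mice and 78 (0.519%) as their highest. The pattern was noticed in the data, crosses the oxygen groups and has no test.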
